A study of Mus musculus with 12 samples.

Results

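TNF, the interleukins IL-1β, IL-6 and IL-18, and the machinery that activates IL-1β and IL-18 were followed in mouse kidney through 10 genes, chosen by name: Tnf, Il1b, Il6, Il18, Casp1, Nlrp3, Pycard, Gsdmd, Tlr4 and Nfkbia. All 10 were present among the 57490 genes of the count table. Kidney RNA (renal cortex in the study's design) was sequenced from 12 male mice on the BKS background, 4 in each of 3 groups, all aged 13 weeks. Ctrl mice were db/m, labelled as wild-type and not diabetic, and described in the study as heterozygous littermates. Model mice were db/db, which carry the leptin receptor mutation on both chromosomes and become obese and diabetic. Both groups received water by gavage. YHY mice were db/db given a water extract of the 5-plant YHY decoction at 6.24 g/mL by mouth once a day for 4 weeks. That is a concentration, and the sources used here do not state which YHY dose group of the study was sequenced. The db/db mice had been chosen at a random blood glucose of at least 16.7 mmol/L and the controls at less than 11.1 mmol/L. All diabetic mice carried the same mutation, so that obesity, lost leptin signalling and diabetes cannot be told apart in Model against Ctrl.

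TNF and the interleukins are secreted signals that bind receptors on neighbouring cells. TNF, IL-1β and bacterial products sensed by Toll-like receptors release the transcription factor NF-kappaB from its inhibitors, and NF-kappaB then switches on cytokine and chemokine genes. The inflammasome works after this step: the sensor NLRP3 assembles with the adaptor ASC (gene Pycard) and caspase-1 (gene Casp1), which cuts the precursors of IL-1β and IL-18 and cleaves gasdermin D (gene Gsdmd), the protein that forms pores in the cell membrane. Much of this pathway is set by protein cleavage, which transcript counts do not measure.

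Total counts ranged from 24415658 to 33276634 per mouse. Transcripts of the mitochondrial genome took 18.4% to 22.7% of counts in Ctrl, 41.2% to 58.9% in Model and 53.8% to 64.6% in YHY. Ctrl 2 (22.7%, 95% Wilson interval 22.7% to 22.7%) and YHY 2 (64.6%, interval 64.6% to 64.6%) lay above the other mice of their groups, and Model 1 (41.2%, interval 41.1% to 41.2%) lay below its own. These intervals cover counting error only. Levels are given in CPM, the usual scaling of counts to a common library size, with library sizes adjusted by the trimmed mean of M-values (TMM), which compares mice after allowing for such shifts in composition. With the mitochondrial transcripts left out of the table, the genes called in Model against Ctrl were again Tnf, Gsdmd and Nfkbia, and Gsdmd was also called in YHY against Model (log2 0.82, adjusted P = 0.0461, against 0.0520 with them). The kidney label was met by its markers: all 8 proximal tubule, all 9 loop, distal and collecting duct, and all 8 podocyte and endothelial markers had counts in every mouse.

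**Figure D1:**
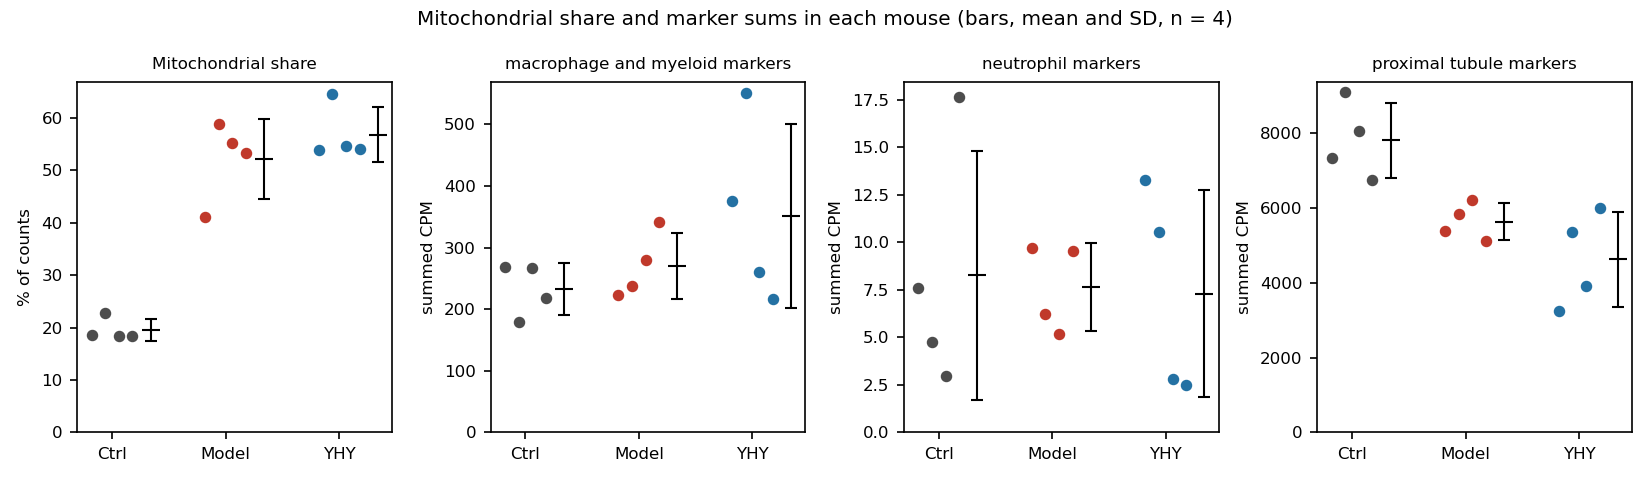
Share of counts from mitochondrial transcripts (%) and summed CPM of the macrophage and myeloid, neutrophil and proximal tubule markers in each mouse of Ctrl, Model and YHY; points are mice and bars show the mean and SD (n = 4). The mitochondrial share of every Ctrl mouse (at most 22.7%) lies below that of every Model and YHY mouse (at least 41.2%).

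In Model against Ctrl, which asks how the diabetic kidney differs from the non-diabetic one, 3 of the 9 genes that could be tested rose past an adjusted P of 0.05: Tnf, Gsdmd and Nfkbia. None of the 9 fell past it with edgeR or DESeq2, or at an unadjusted P under 0.05. Over all 17431 genes tested, 38.0% passed, 19.6% as higher and 18.5% as lower, so a count of 3 of 9 is near the background and is no result about these genes together. In YHY against Model, which asks what the extract changed in diabetic mice, none of the 9 passed with edgeR (13.3% of all genes did, 5.63% higher and 7.62% lower). Gsdmd alone had an unadjusted P under 0.05 there, and with DESeq2 it was the 1 gene called. The comparisons share the Model mice, so their values are given side by side. Il6 fell below the filter on low counts and was not in the fit.

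**Figure D2:**
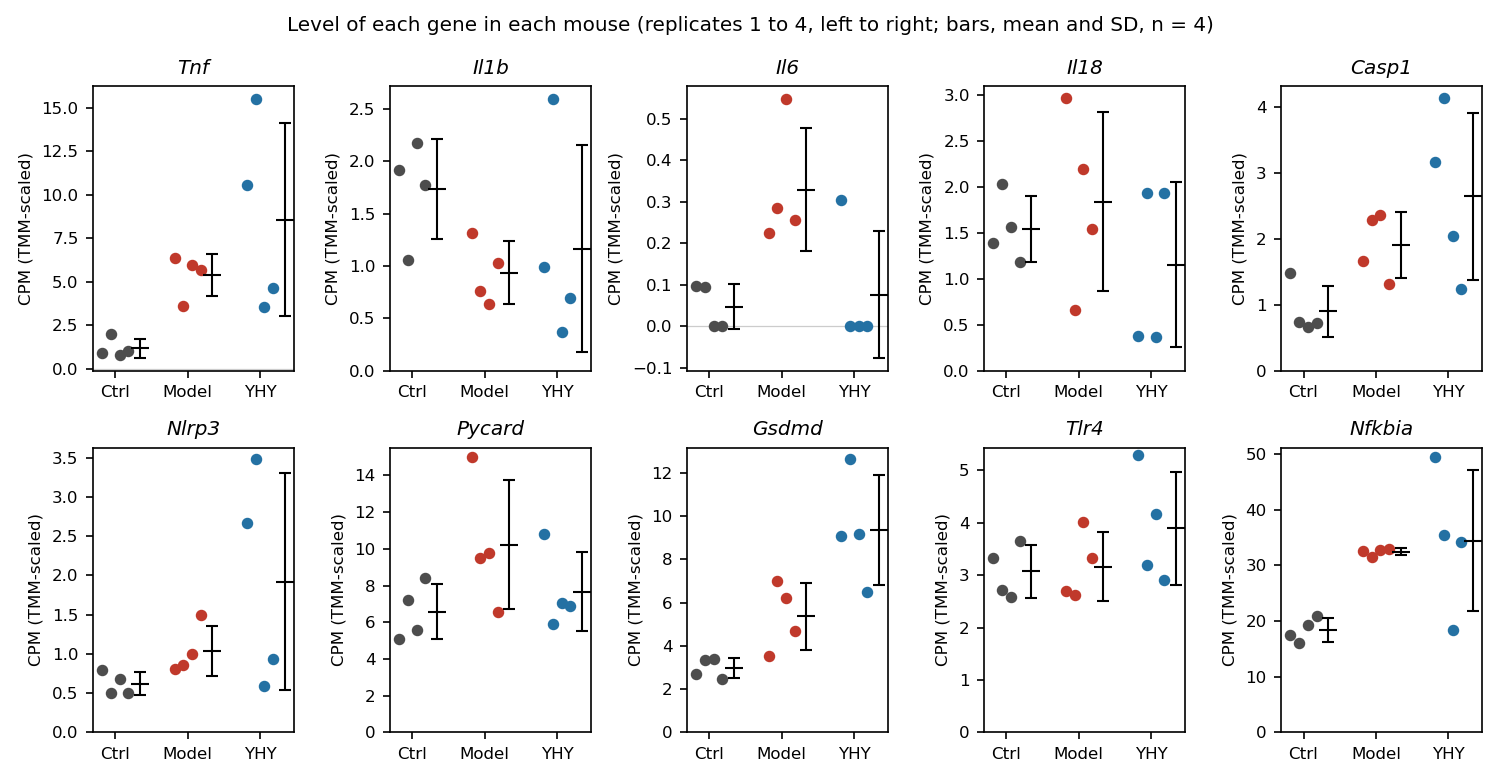
Level of each of the 10 genes in each mouse, in TMM-scaled CPM, for Ctrl, Model and YHY; points are mice and bars show the mean and SD (n = 4). All 4 Model mice lie above all 4 Ctrl mice for Tnf, Il6, Nlrp3, Gsdmd and Nfkbia, and in no gene are YHY and Model mice fully apart.

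Tnf encodes TNF, the ligand of TNF receptors 1 and 2 (ENSMUSG00000024401, chr17:35418357-35420983, minus strand; positions are in GRCm39). Its raw counts were 37, 64, 32 and 44 in Ctrl 1 to 4, 197, 76, 130 and 133 in Model 1 to 4, and 277, 281, 95 and 120 in YHY 1 to 4. In CPM these were 0.888, 2.00, 0.783 and 1.00 in Ctrl, 6.34, 3.62, 5.93 and 5.68 in Model, and 10.6, 15.5, 3.53 and 4.65 in YHY. Every Model mouse was above every Ctrl mouse, whereas YHY 1 and 2 lay above all Model mice and YHY 3 below all of them. Ctrl averaged 1.17 ± 0.560 CPM, Model 5.39 ± 1.21 and YHY 8.57 ± 5.57 (SD, n = 4). Tnf was 4.66-fold higher in Model than in Ctrl (log2 fold change 2.22 ± 0.44 SE, adjusted P = 0.00103), and it passed under each of the 23 other settings tried. From Model to YHY the log2 difference was 0.66 ± 0.41 (95% interval -0.21 to 1.53, adjusted P = 0.311), so that neither a fall nor a rise was shown. Without YHY 2 it was 0.21 and without YHY 3 0.92.

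Il1b encodes the precursor of IL-1β (ENSMUSG00000027398, chr2:129206490-129213059, minus strand). It was counted 80, 34, 89 and 78 times in Ctrl, 41, 16, 14 and 24 times in Model, and 26, 47, 10 and 18 times in YHY. In CPM, Ctrl held 1.92, 1.06, 2.18 and 1.77, Model 1.32, 0.762, 0.639 and 1.03, and YHY 0.991, 2.60, 0.372 and 0.697. The Ctrl and Model mice overlapped through Ctrl 2 alone, which lay below Model 1, and YHY spanned the range of both groups. Model against Ctrl gave a log2 difference of -0.88 ± 0.52 (adjusted P = 0.196; two-sided exact permutation P = 0.0571), and YHY against Model 0.28 ± 0.53 (adjusted P = 0.784), which turned to -0.46 without YHY 2 and was 0.58 without YHY 3. Scaled by library sizes alone, the Il1b difference in Model against Ctrl was -1.29 (adjusted P = 0.0502). Over the 23 other settings it stayed negative, from -1.32 to -0.74, and passed under none (adjusted P from 0.0502 to 0.346). In Model, Tnf and Il1b lay on opposite sides of their Ctrl means, but only the Tnf difference passed. A long non-coding gene on the other strand, Il1bos, overlaps Il1b and had 88 counts over all mice; the strand setting of the counting is not given in the sources used here, so their reads cannot be told apart.

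Il6, the gene of IL-6 (ENSMUSG00000025746, chr5:30218112-30224979, plus strand), was the lowest of the 10. Its raw counts were 4, 3, 0 and 0 in Ctrl, 7, 6, 12 and 6 in Model, and 8, 0, 0 and 0 in YHY. All Model mice were above all Ctrl mice (exact permutation P = 0.0286, the smallest that 4 mice against 4 can give), and the counts of YHY came from YHY 1 alone. A count of 0 allows up to 3 counts, or 0.0734 CPM in Ctrl 3 and 0.166 CPM in YHY 2. YHY against Model gave an exact permutation P of 0.114. Fitted without the filter, Il6 gave log2 2.69 for Model against Ctrl (adjusted P = 0.192) and -2.01 for YHY against Model (adjusted P = 0.436). Its counts were thus at most 12, and the difference was not called.

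Il18 encodes the precursor of IL-18 (ENSMUSG00000039217, chr9:50466127-50493140, plus strand). Its counts were 58, 65, 64 and 52 in Ctrl, 92, 14, 48 and 36 in Model, and 10, 35, 10 and 50 in YHY. In Model the range was 0.666 to 2.96 CPM, around the 1.18 to 2.03 CPM of Ctrl, and YHY 1 and 3 (0.381 and 0.372 CPM) lay below every mouse of the other groups. Neither comparison passed (log2 0.26 ± 0.55, adjusted P = 0.740, and -0.69 ± 0.57, adjusted P = 0.458). Leaving out 1 mouse moved the former to between -0.13 (Model 1) and 0.54 (Model 2), and the latter to between -1.09 (YHY 4) and -0.38 (Model 1). Bco2 on the other strand overlaps the start of Il18 and had 1818 counts over all mice, which cannot be told apart from Il18 in the shared stretch.

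Tlr4, the receptor for bacterial lipopolysaccharide (ENSMUSG00000039005, chr4:66745821-66848521, plus strand), was counted 55 to 161 times per mouse. Ctrl averaged 3.08 ± 0.509 CPM, Model 3.17 ± 0.650 and YHY 3.89 ± 1.08 (SD, n = 4), and the mice of all groups overlapped. The log2 difference was 0.04 ± 0.27 in Model against Ctrl (95% interval -0.54 to 0.62) and 0.30 ± 0.27 in YHY against Model (interval -0.28 to 0.88). The former ran from -0.10 without Model 3 to 0.12 without Model 2, and the latter was 0.11 without YHY 1. With library sizes alone the former was -0.41 (adjusted P = 0.335). A long non-coding gene on the same strand lies inside Tlr4 and had 931 counts over all mice, beside a mean of 98.5 counts per mouse for Tlr4. Reads of a shared stretch cannot be told apart, whatever the strand setting.

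Among the inflammasome genes, Nlrp3, the sensor (ENSMUSG00000032691, chr11:59432394-59457782, plus strand), was counted 33, 16, 28 and 22 times in Ctrl, 25, 18, 22 and 35 times in Model, and 70, 63, 16 and 24 times in YHY. In CPM the Ctrl mice lay at 0.499 to 0.792 and the Model mice at 0.804 to 1.50, while YHY 1 and 2 reached 2.67 and 3.48 and YHY 3 and 4 stood at 0.595 and 0.929. Model and Ctrl did not overlap (exact permutation P = 0.0286), but the gap between Ctrl 1 and Model 1 was narrow and the fit did not call it (log2 0.74 ± 0.53, adjusted P = 0.287). With library sizes alone the log2 difference was 0.31 (adjusted P = 0.663). YHY against Model gave 0.87 ± 0.52 (adjusted P = 0.290), which was 0.42 without YHY 2 and 1.17 without YHY 3.

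Casp1, the protease (ENSMUSG00000025888, chr9:5298508-5307290, plus strand), was counted 62, 24, 27 and 32 times in Ctrl, 52, 48, 52 and 31 times in Model, and 83, 75, 55 and 32 times in YHY. Ctrl 1, at 1.49 CPM, stood apart from the other Ctrl mice (0.661 to 0.748) and reached into the Model range of 1.32 to 2.37. The log2 difference of 1.07 ± 0.42 in Model against Ctrl missed the threshold (adjusted P = 0.0565) and passed under 7 of 23 other settings, among them without Ctrl 1 (1.37, adjusted P = 0.0312; range over the settings 0.0312 to 0.260), YHY 2 (1.07, adjusted P = 0.0467) or YHY 4 (1.07, adjusted P = 0.0358). Scaled by library sizes alone it was 0.61 (adjusted P = 0.260). In YHY against Model it was 0.46 ± 0.42 (adjusted P = 0.503), and 0.17 without YHY 2 or 0.70 without YHY 4.

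Pycard, the adaptor (ENSMUSG00000030793, chr7:127588880-127593039, minus strand), had 107 to 467 counts per mouse. Model 1 had the highest level, from 467 counts, and Model 4, at 6.58 CPM, lay within the Ctrl range of 5.11 to 8.39 CPM. Model against Ctrl gave log2 0.64 ± 0.26 (adjusted P = 0.0668), which passed under 4 of 23 other settings, among them without Model 4 (0.80, adjusted P = 0.0319; range over the settings 0.0319 to 0.605) or YHY 1 (0.64, adjusted P = 0.0499). Without Model 1, the highest mouse, it was 0.33 (adjusted P = 0.341), and with library sizes alone 0.22 (adjusted P = 0.605). YHY against Model gave -0.42 ± 0.26 (adjusted P = 0.321), and -0.16 without Model 1 or -0.63 without YHY 1.

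Gsdmd, the pore-forming protein (ENSMUSG00000022575, chr15:75734176-75739257, plus strand), was counted 112, 107, 139 and 109 times in Ctrl, 110, 147, 136 and 110 times in Model, and 238, 229, 246 and 167 times in YHY. In CPM this was 2.69, 3.34, 3.40 and 2.48 in Ctrl, 3.54, 7.00, 6.21 and 4.70 in Model, and 9.07, 12.7, 9.15 and 6.47 in YHY. All Model mice lay above all Ctrl mice, although raw counts of these groups were alike, so that the difference rests on the scaling of the libraries. YHY 1, 2 and 3 lay above all Model mice and YHY 4 fell among them. Model against Ctrl was 1.80-fold (log2 0.85 ± 0.26, adjusted P = 0.0186). That call was lost with library sizes alone (0.39, adjusted P = 0.226) and without Ctrl 1, Ctrl 4, Model 2 or Model 3 (log2 0.74, 0.71, 0.69 and 0.76; adjusted P = 0.0652, 0.0667, 0.0723 and 0.0559). YHY against Model was 1.74-fold and just missed (log2 0.80 ± 0.26, adjusted P = 0.0520; exact permutation P = 0.0571), and 8 of 23 other settings called it, among them without Model 2 (0.95, adjusted P = 0.0446; range over the 23 settings 0.0215 to 0.152) or YHY 4 (0.94, adjusted P = 0.0235).

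Nfkbia (ENSMUSG00000021025, chr12:55536195-55539432, minus strand) encodes the inhibitor that holds NF-kappaB in the cytoplasm, and is itself switched on by NF-kappaB. Its counts were 728, 513, 787 and 919 in Ctrl, 1015, 662, 717 and 770 in Model, and 1299, 641, 497 and 886 in YHY. In CPM, Ctrl held 17.5, 16.0, 19.3 and 20.9, Model 32.6, 31.5, 32.7 and 32.9, and YHY 49.5, 35.4, 18.5 and 34.3. The Model mice lay close together and above all Ctrl mice, while YHY 1, 2 and 4 lay above all Model mice and YHY 3 in the Ctrl range. Model against Ctrl was 1.76-fold (log2 0.82 ± 0.21, adjusted P = 0.00706). The call was lost with library sizes alone (0.38, adjusted P = 0.243) and without Ctrl 2 and Model 1 together, where the adjusted P lay just above the threshold (log2 0.70). YHY against Model gave 0.09 ± 0.21 (95% interval -0.37 to 0.54, adjusted P = 0.842), with -0.15 without YHY 1 and 0.29 without YHY 3.

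**Figure D3:**
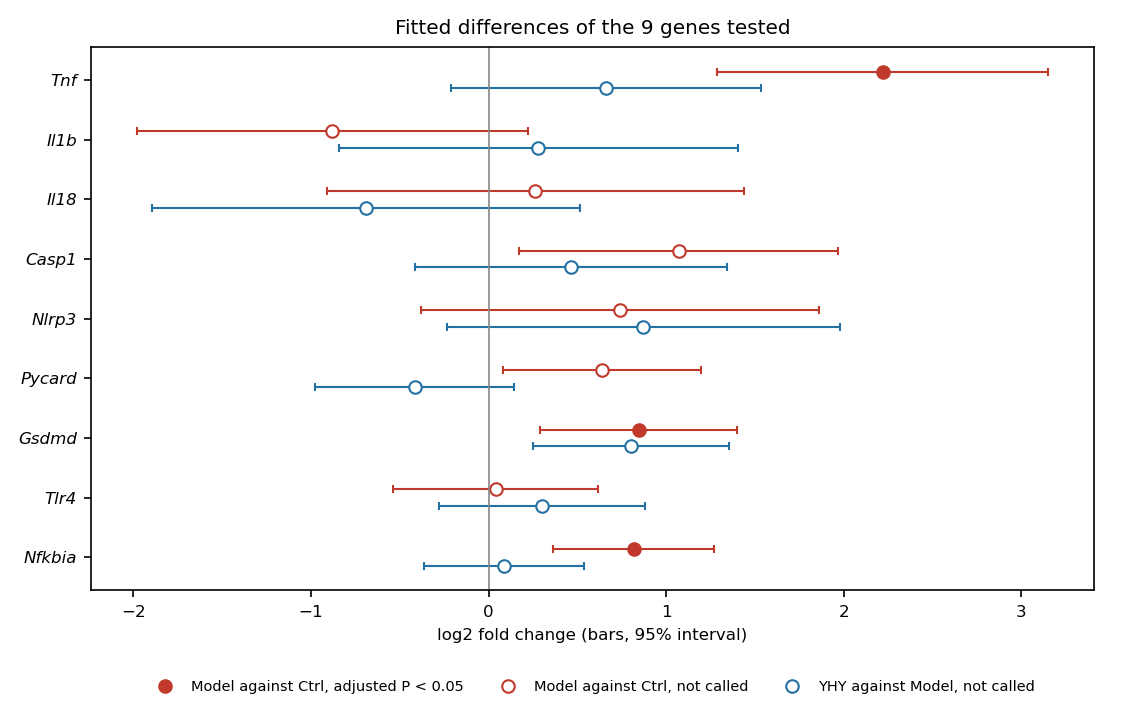
Log2 fold change of the 9 genes tested, with its 95% interval, for Model against Ctrl (red) and YHY against Model (blue); filled points have an adjusted P under 0.05. Tnf, Gsdmd and Nfkbia are filled in Model against Ctrl, at 2.22, 0.85 and 0.82, and no point is filled in YHY against Model.

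Levels per length of gene were taken as FPKM, the CPM divided by the deposited gene length in kilobases. By FPKM, Nfkbia was the most abundant of the 10 in each group, at 11.4 ± 1.33 (Ctrl), 20.2 ± 0.392 (Model) and 21.4 ± 7.88 (YHY) (SD, n = 4). In Ctrl it was followed by Pycard (1.73 ± 0.396), Il18 (1.50 ± 0.348) and Gsdmd (1.25 ± 0.194), neighbours whose ranges overlapped, and then by Il1b (0.909 ± 0.251) and Tnf (0.712 ± 0.341). In Model, Tnf stood second in mean at 3.29 ± 0.740, above Pycard at 2.69 ± 0.924, although their ranges overlapped. That order rests on the deposited lengths, 1639 bases for Tnf and 3800 for Pycard. In CPM the Model mean was 5.39 for Tnf and 10.2 for Pycard. Il6 was last in every group, at 0.135 ± 0.0610 FPKM or less.

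Of the 10 genes, 5 had Model and Ctrl groups that did not overlap in CPM, all of them higher in Model (40.2% of all genes tested did not overlap, 19.9% as higher), and none had YHY and Model groups apart (16.1% of all genes). These groups were compared in TMM-scaled CPM. Scaled by total counts alone, Ctrl and Model mice overlap in Nlrp3, Gsdmd and Nfkbia. The 20 exact permutation tests share their mice and were not adjusted. RefSeq promoters (GRCm38.p6) were found for 8 of the 10, with 9 entries since Nlrp3 has more than 1 start; Gsdmd and Tlr4 have none. The 250 bases before the start are printed for the 4 non-overlapping genes with an entry, since all Model mice lay above all Ctrl mice, and for Nlrp3 at the start whose window holds a match. The positions of these windows are in GRCm38, and capitals mark matches to the NF-kappaB consensus, searched on both strands.
Tnf, chr17:35202008-35202257, minus strand: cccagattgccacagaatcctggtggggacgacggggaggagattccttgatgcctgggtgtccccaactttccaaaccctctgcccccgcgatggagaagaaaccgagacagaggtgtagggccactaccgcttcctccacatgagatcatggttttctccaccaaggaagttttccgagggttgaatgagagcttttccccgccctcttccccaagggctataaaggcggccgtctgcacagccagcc
Il6, chr5:30012864-30013113, plus strand: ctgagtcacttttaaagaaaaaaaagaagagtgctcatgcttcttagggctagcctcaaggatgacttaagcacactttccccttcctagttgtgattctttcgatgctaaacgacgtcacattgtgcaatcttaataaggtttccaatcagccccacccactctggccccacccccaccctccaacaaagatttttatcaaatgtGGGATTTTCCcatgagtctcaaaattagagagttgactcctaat
Nlrp3, chr11:59541319-59541568, plus strand: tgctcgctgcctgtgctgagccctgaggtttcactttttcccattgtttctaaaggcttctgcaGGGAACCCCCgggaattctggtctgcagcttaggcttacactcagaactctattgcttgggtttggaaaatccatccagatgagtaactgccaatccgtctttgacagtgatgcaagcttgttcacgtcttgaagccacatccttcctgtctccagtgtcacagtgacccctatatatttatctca
Nfkbia, chr12:55492648-55492897, minus strand: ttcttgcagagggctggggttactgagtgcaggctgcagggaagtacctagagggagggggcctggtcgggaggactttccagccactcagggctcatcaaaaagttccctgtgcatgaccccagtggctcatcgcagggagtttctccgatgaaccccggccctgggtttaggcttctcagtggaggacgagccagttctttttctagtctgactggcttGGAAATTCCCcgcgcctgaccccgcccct

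The consensus occurs in the window of Il6 (last base 35 bases before the start), of this Nlrp3 start (177) and of Nfkbia (20), which is 3 of the 9 windows, and in 7.25% of all 32851 promoters of this length. It does not occur in these letters in the windows of Tnf, Il1b, Il18, Casp1 and Pycard, nor in that of the other Nlrp3 start (chr11:59542436-59542685). The AP-1 motif TGANTCA was found in 1 of the 9 windows, that of Il6 (6.75% of all promoters), and TATAAA in 3 (12.4%), both searched on both strands. TATAAA reads in the direction of the gene in the windows of Tnf and Il1b, and only on the other strand in that of Il18. No match overlaps another. A match is a description of letters only.

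Around the 10 genes, 8 lists of pathway genes were described by their counts and medians, beside a median log2 fold change over all genes tested of 0.04 for Model against Ctrl, and of 0.02 for YHY against Model. Values of single genes are log2 fold changes ± SE from the same edgeR fit, and where a named gene lost its call under any of the 23 other settings, the number that kept it follows its adjusted P. Genes counted as passing but not named had a mean under 50 counts or a smaller change than the 3 named in their list and direction. Over all genes tested, 19.6% were higher and 18.5% lower in Model, and 5.63% higher and 7.62% lower in YHY. The counts of the lists stand beside these shares as descriptions. The most abundant gene of a list is that with the highest mean FPKM over the 12 mice. In Model against Ctrl, TNF receptor signalling had 6 of 21 genes higher (median 0.10) and none lower with edgeR (2 at an unadjusted P under 0.05 and 1 with DESeq2). Birc3 (1.16 ± 0.28, adjusted P = 0.00379), the kinase adaptor Tab1 (0.99 ± 0.17, adjusted P = 0.000389) and TNF receptor 2, Tnfrsf1b (0.94 ± 0.36, adjusted P = 0.0487, 13 of 23 settings), rose, whereas TNF receptor 1, Tnfrsf1a, gave -0.01 ± 0.16. In YHY against Model 2 rose and 2 fell (median 0.17). Rnf31 (0.79 ± 0.17, adjusted P = 0.00900) and Rbck1 (-0.57 ± 0.16, adjusted P = 0.0258, 15 of 23 settings), subunits of the same linear ubiquitin ligase, went opposite ways, and both were higher in Model than in Ctrl (0.61 ± 0.18, adjusted P = 0.0127, 19 of 23 settings, and 0.52 ± 0.15, adjusted P = 0.0153, 19 of 23 settings). The ubiquitin ligase Birc2 rose (0.73 ± 0.19, adjusted P = 0.0214, 21 of 23 settings) and Tnip1, an inhibitor of NF-kappaB signalling, fell (-0.40 ± 0.13, adjusted P = 0.0492, 2 of 23 settings). Tnfrsf1b was not called from Ctrl to Model without Ctrl 1 (1.01), Ctrl 2 (0.96), Ctrl 3 (0.87), Ctrl 4 (0.77), Model 2 (0.94), Model 3 (0.86), Model 4 (0.74) or YHY 1 (0.94), at an adjusted P of 0.0522 to 0.158. Tnfrsf1b in Model against Ctrl ran from 0.49 to 1.16 over the 23 other settings (adjusted P up to 0.233). Rbck1 was not called from Model to YHY without Model 2 (-0.54), Model 3 (-0.54), Model 4 (-0.52), YHY 1 (-0.51) or YHY 2 (-0.50), at an adjusted P of 0.0614 to 0.0780. Rnf31 was not called from Ctrl to Model without Ctrl 3 (0.51) or Model 2 (0.45), at an adjusted P of 0.0597 to 0.0612. Rnf31 in Model against Ctrl ran from 0.15 to 0.71 over the 23 other settings (adjusted P up to 0.597). Rbck1 was not called from Ctrl to Model without Ctrl 1 (0.41), Ctrl 3 (0.42) or Model 4 (0.46), at an adjusted P of 0.0509 to 0.0809. Rbck1 in Model against Ctrl ran from 0.07 to 0.62 over the 23 other settings (adjusted P up to 0.794). Birc2 was not called from Model to YHY without Model 3 (0.68) or Model 4 (0.67), at an adjusted P of 0.0625 to 0.0776. Tnip1 was not called from Model to YHY without Ctrl 1 (-0.42), Ctrl 2 (-0.41), Ctrl 3 (-0.42), Ctrl 4 (-0.42), Model 1 (-0.33), Model 2 (-0.42), Model 3 (-0.47), Model 4 (-0.40), YHY 1 (-0.39), YHY 2 (-0.42), YHY 3 (-0.39) or YHY 4 (-0.43), at an adjusted P of 0.0515 to 0.118.

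IL-1 and IL-18 signalling had 3 of 15 tested genes higher in Model (median 0.13) and 1 higher in YHY (median 0.30). Il1rn, the IL-1 receptor antagonist, rose (1.97 ± 0.38, adjusted P = 0.000943), as did Il33, an alarmin of the IL-1 family (1.36 ± 0.24, adjusted P = 0.000482). The gene higher in YHY was Il18r1, a receptor chain of IL-18 (1.58 ± 0.48, adjusted P = 0.0394, 11 of 22 settings), which was below the filter in the remaining setting, at least 10 counts in every mouse. Il1a had 0 to 5 counts per mouse. IL-6 signalling had 4 of 16 higher and 1 lower in Model (median 0.45), with the transcription factor Cebpb (1.05 ± 0.25, adjusted P = 0.00375), the kinase Tyk2 (0.80 ± 0.18, adjusted P = 0.00305, 22 of 23 settings) and the receptor Osmr (0.44 ± 0.15, adjusted P = 0.0320, 13 of 23 settings) higher and the kinase Jak1 lower (-0.80 ± 0.15, adjusted P = 0.000884). With library sizes alone Osmr gave -0.0042. Tyk2 in Model against Ctrl ran from 0.34 to 0.92 over the 23 other settings (adjusted P up to 0.122). In YHY 3 rose and 1 fell (median 0.27): the receptors Il6ra (1.01 ± 0.30, adjusted P = 0.0340, 11 of 23 settings), Lifr (0.62 ± 0.14, adjusted P = 0.0119, 22 of 23 settings) and Osmr (0.61 ± 0.15, adjusted P = 0.0169, 20 of 23 settings) rose, and Il11ra1 fell (-0.48 ± 0.14, adjusted P = 0.0352, 13 of 23 settings). Il18r1 was not called from Model to YHY without Ctrl 1 (1.57), Ctrl 3 (1.57), Model 1 (1.48), Model 2 (1.38), Model 3 (1.59), YHY 1 (1.55), YHY 2 (1.41) or YHY 3 (1.65), at an adjusted P of 0.0512 to 0.0969. Osmr was not called from Ctrl to Model without Ctrl 2 (0.39), Ctrl 3 (0.34), Ctrl 4 (0.40), Model 2 (0.36) or Model 4 (0.38), at an adjusted P of 0.0829 to 0.146. Il6ra was not called from Model to YHY without Model 1 (0.92), Model 3 (0.89), Model 4 (1.07), YHY 1 (1.01), YHY 2 (0.98) or YHY 3 (1.03), at an adjusted P of 0.0538 to 0.106. Osmr was not called from Model to YHY without Model 3 (0.54), at an adjusted P of 0.0660. Il11ra1 was not called from Model to YHY without Model 2 (-0.47), Model 3 (-0.41), Model 4 (-0.47), YHY 1 (-0.45), YHY 2 (-0.50) or YHY 4 (-0.46), at an adjusted P of 0.0529 to 0.122.

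Of 17 inflammasome and pyroptosis genes tested, 5 were higher and 5 lower in Model (median 0.70), where all genes had 19.6% higher and 18.5% lower. Naip5, a sensor of bacterial flagellin, rose (1.73 ± 0.34, adjusted P = 0.000961), whereas its partner Nlrc4 fell (-1.74 ± 0.32, adjusted P = 0.000565); Naip5 has close paralogs, and how the counting split reads among them is not given in the sources used here. Casp4, the caspase that senses lipopolysaccharide, rose (1.18 ± 0.36, adjusted P = 0.0172, 20 of 23 settings), as did Nlrp6 (0.78 ± 0.23, adjusted P = 0.0136, 21 of 23 settings), while Gsdme (-0.77 ± 0.19, adjusted P = 0.00464) and the NLRP3 partner Nek7 (-0.70 ± 0.16, adjusted P = 0.00315) fell. Ninj1, which ruptures the membrane of dying cells, was lower in Model (-0.51 ± 0.14, adjusted P = 0.00883), and in YHY it was the 1 gene that fell (-0.77 ± 0.14, adjusted P = 0.00317), and none rose with edgeR (median 0.25; 4 at an unadjusted P under 0.05 and 1 with DESeq2). Casp4 was not called from Ctrl to Model without Ctrl 3 (1.08) or Model 4 (1.00), at an adjusted P of 0.0525 to 0.0618. Casp4 in Model against Ctrl ran from 0.73 to 1.28 over the 23 other settings (adjusted P up to 0.0915). Nlrp6 was not called from Ctrl to Model without Ctrl 4 (0.63), at an adjusted P of 0.0531. Nlrp6 in Model against Ctrl ran from 0.33 to 0.98 over the 23 other settings (adjusted P up to 0.181).

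Toll-like receptors and adaptors had 4 of 15 higher and 1 lower in Model (median 0.43). The lipopolysaccharide co-receptor Cd14 (1.45 ± 0.27, adjusted P = 0.000757) and the binding protein Lbp (1.26 ± 0.32, adjusted P = 0.00620, 22 of 23 settings) rose, beside a Tlr4 that did not pass, and the adaptor Ticam1 fell (-0.66 ± 0.17, adjusted P = 0.00570). In YHY the inhibitor Tollip fell (-0.72 ± 0.16, adjusted P = 0.0102, 22 of 23 settings) and none rose with edgeR (median 0.23; 3 at an unadjusted P under 0.05 and 1 with DESeq2).

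NF-kappaB subunits, inhibitors and kinases had 4 of 14 higher and 2 lower in Model (median 0.03), and 2 higher in YHY (median 0.12). Nfkbiz, an inducible nuclear member of the inhibitor family, rose in both comparisons (1.05 ± 0.20, adjusted P = 0.000772, and 1.12 ± 0.20, adjusted P = 0.00267), and the kinase Ikbkb fell in Model (-0.38 ± 0.14, adjusted P = 0.0447, 13 of 23 settings) and rose in YHY (0.69 ± 0.14, adjusted P = 0.00582). In Model the subunit Relb, also a target gene (0.73 ± 0.25, adjusted P = 0.0303, 13 of 23 settings), and the kinase Map3k14 (0.50 ± 0.18, adjusted P = 0.0360, 11 of 23 settings) were higher and Bcl3, a nuclear member of the inhibitor family (-0.99 ± 0.34, adjusted P = 0.0324, 16 of 23 settings), was lower. NF-kappaB target genes had 8 of 19 higher and 2 lower in Model (median 0.32). They included nitric oxide synthase Nos2 (2.11 ± 0.34, adjusted P = 0.000197) and the neutrophil-attracting chemokines Cxcl1 (2.00 ± 0.51, adjusted P = 0.00583) and Cxcl2 (1.99 ± 0.37, adjusted P = 0.000717), against the adhesion molecule Icam1 (-0.57 ± 0.16, adjusted P = 0.0114) and the mitochondrial dismutase Sod2 (-0.50 ± 0.18, adjusted P = 0.0391, 14 of 23 settings). In YHY 1 rose, Lcn2, a tubular injury marker (2.06 ± 0.62, adjusted P = 0.0381, 16 of 23 settings; median 0.48). Of the other interleukins and interferon gamma, 6 of 28 had enough counts to test. Il15 rose (0.54 ± 0.18, adjusted P = 0.0254, 17 of 23 settings) and Il34 fell (-1.11 ± 0.23, adjusted P = 0.00129) in Model, 1 being higher and 2 lower in all (median -0.01), the latter with Il4, which had few counts. In YHY none passed with edgeR (median -0.06; 1 at an unadjusted P under 0.05 and 1 with DESeq2). Ikbkb was not called from Ctrl to Model without Ctrl 2 (-0.41), Ctrl 4 (-0.35), Model 2 (-0.35), Model 3 (-0.41) or Model 4 (-0.42), at an adjusted P of 0.0516 to 0.107. Relb was not called from Ctrl to Model without Ctrl 1 (0.69), Ctrl 2 (0.62), Ctrl 3 (0.71), Ctrl 4 (0.74), Model 2 (0.70) or Model 4 (0.62), at an adjusted P of 0.0521 to 0.0960. Relb in Model against Ctrl ran from 0.28 to 0.83 over the 23 other settings (adjusted P up to 0.438). Map3k14 was not called from Ctrl to Model without Ctrl 1 (0.46), Ctrl 2 (0.49), Ctrl 3 (0.43), Ctrl 4 (0.47), Model 2 (0.44), Model 3 (0.49) or Model 4 (0.49), at an adjusted P of 0.0697 to 0.128. Map3k14 in Model against Ctrl ran from 0.055 to 0.61 over the 23 other settings (adjusted P up to 0.865). Bcl3 was not called from Ctrl to Model without Ctrl 2 (-0.92), Ctrl 3 (-0.998), Model 2 (-1.05), Model 3 (-0.72) or Model 4 (-0.98), at an adjusted P of 0.0556 to 0.0716. Sod2 was not called from Ctrl to Model without Ctrl 1 (-0.56), Ctrl 2 (-0.45), Ctrl 3 (-0.54), Model 2 (-0.48), Model 3 (-0.51) or Model 4 (-0.42), at an adjusted P of 0.0545 to 0.120. Lcn2 was not called from Model to YHY without Model 1 (2.35), Model 2 (1.95), Model 3 (1.82), Model 4 (2.20), YHY 1 (1.59) or YHY 3 (1.98), at an adjusted P of 0.0575 to 0.116. Il15 was not called from Ctrl to Model without Ctrl 1 (0.41), Ctrl 3 (0.46), Ctrl 4 (0.43), Model 2 (0.46) or Model 3 (0.48), at an adjusted P of 0.0807 to 0.120. Il15 in Model against Ctrl ran from 0.11 to 0.73 over the 23 other settings (adjusted P up to 0.658).

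**Figure D4:**
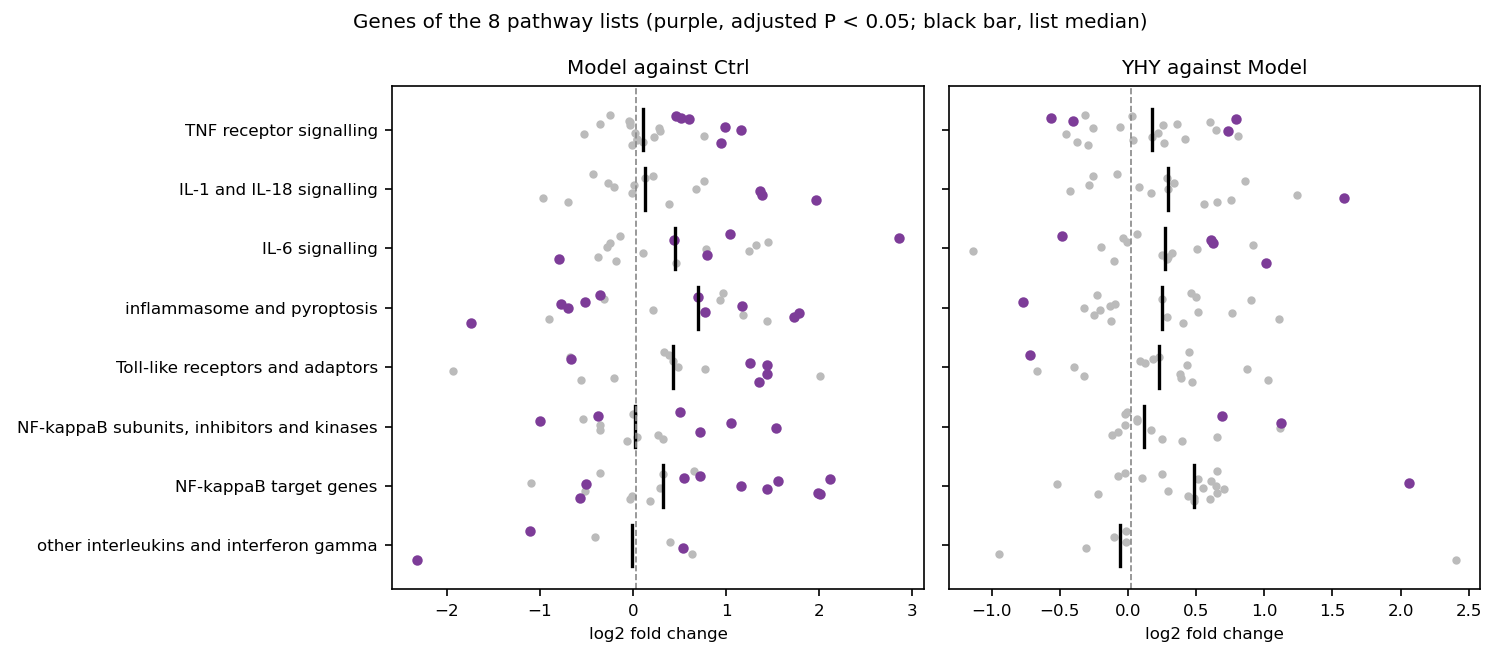
Log2 fold change of each tested gene of the 8 pathway lists in Model against Ctrl and YHY against Model; purple points have an adjusted P under 0.05, grey points do not, black bars are list medians and dashed lines the median of all genes tested (0.04 and 0.02). Inflammasome and pyroptosis genes fall on both sides in Model against Ctrl, 5 higher and 5 lower.

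Many cytokine genes are read in immune cells, but which cells held these transcripts was not determined here. In whole tissue fewer cells of a type and less RNA per cell cannot be told apart. The macrophage and myeloid list (15 genes, 14 or 15 with counts in each mouse, Lyz2 the most abundant) summed to 268, 180, 267 and 218 CPM in Ctrl, 223, 238, 279 and 342 in Model, and 376, 551, 260 and 216 in YHY. YHY 1 and 2, which were highest in Tnf, Nlrp3 and Casp1, were also highest in this sum, of which Lyz2 held 232 and 362 CPM. Without Lyz2 the sum was 189 in YHY 2, still the highest, and 144 in YHY 1, below Ctrl 1 (166), Ctrl 3 (165), Model 4 (157) and YHY 3 (145). In Model, Cd68 was higher (1.05 ± 0.28, adjusted P = 0.00730, 22 of 23 settings) and complement genes C1qa (-1.08 ± 0.23, adjusted P = 0.00147), C1qb (-1.003 ± 0.27, adjusted P = 0.00772) and C1qc (-1.62 ± 0.29, adjusted P = 0.000441) were lower, with 1 higher and 4 lower of 15 in all (median -0.09); in YHY none passed with edgeR or DESeq2 (median 0.44; 3 at an unadjusted P under 0.05). Cd68 in Model against Ctrl ran from 0.62 to 1.19 over the 23 other settings (adjusted P up to 0.0964). The part of the macrophage and myeloid list in the levels of Tnf, Nlrp3 and Casp1 was not tested.

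Neutrophil markers (8 genes, 3 to 7 with counts, S100a8 the most abundant over all mice and S100a9 in Ctrl) summed to 2.52 to 17.7 CPM, with Ly6g and Elane at 3 counts or less in every mouse; 0 of 4 tested passed in either comparison with edgeR, at an unadjusted P under 0.05 or with DESeq2 (medians -0.28 and -0.04). T and NK cell markers (10 genes, 5 to 10 with counts, Trac the most abundant) summed to 1.94 to 9.36 CPM, with 8 of the 10 at 0 in at least 1 mouse, and 0 of 5 passed with edgeR (medians -1.38 and -0.07); 1 was lower in Model at an unadjusted P under 0.05 and with DESeq2, and 0 in YHY by either. B cell markers (5 genes, 3 to 5 with counts, Ms4a1 at 0 in some mice) summed to 1.58 to 24.9 CPM. Jchain, the most abundant, was lower in Model (-2.15 ± 0.74, adjusted P = 0.0318, 14 of 23 settings) and higher in YHY (2.63 ± 0.75, adjusted P = 0.0308, 17 of 23 settings), 1 of 3 tested in each case (medians -0.81 and 0.96). YHY 3 held 23.7 CPM of Jchain, against 6.67, 2.21 and 1.82 in YHY 1, 2 and 4, and without YHY 3 the log2 difference from Model was 1.36 (adjusted P = 0.164). Jchain was not called from Ctrl to Model without Ctrl 1 (-2.05), Ctrl 2 (-2.01), Ctrl 3 (-2.12), Model 1 (-1.99), Model 2 (-1.90) or Model 3 (-2.20), at an adjusted P of 0.0582 to 0.0915. Jchain was not called from Model to YHY without Model 1 (2.44), Model 2 (2.38), Model 3 (2.69) or YHY 3 (1.36), at an adjusted P of 0.0789 to 0.164.

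Markers of kidney cells differed in the same libraries. Proximal tubule markers (8 genes, Slc27a2 the most abundant) had a mean sum of 7811 ± 1003 CPM for Ctrl mice, 5635 ± 483 for Model mice and 4628 ± 1270 for YHY mice (SD, n = 4), with 4 of 8 lower in Model (median -0.63), among them the endocytic receptors Lrp2 (-1.68 ± 0.29, adjusted P = 0.000400) and Cubn (-0.90 ± 0.21, adjusted P = 0.00360) and the water channel Aqp1 (-0.94 ± 0.29, adjusted P = 0.0162, 22 of 23 settings), and 0 of 8 in YHY with edgeR (median -0.41; 3 at an unadjusted P under 0.05 and 3 with DESeq2, all lower). Of the 9 loop, distal and collecting duct markers, with Aqp2 the most abundant over all mice and Slc12a1 in YHY, and summing to 1732 to 3710 CPM, 1 was higher and 3 were lower in Model (median -0.05), and 1 was lower in YHY (median -0.24). In Model, Umod (-2.86 ± 0.38, adjusted P = 5.43e-05) and the water channels Aqp3 (-1.72 ± 0.30, adjusted P = 0.000389) and Aqp2 (-1.18 ± 0.42, adjusted P = 0.0354, 16 of 23 settings) were lower and the sodium chloride transporter Slc12a3 (1.33 ± 0.22, adjusted P = 0.000256) was higher. The gene lower in YHY was Atp6v1g3, a proton pump subunit (-1.13 ± 0.23, adjusted P = 0.00568). Of the 8 podocyte and endothelial markers, summing to 196 to 388 CPM, Nphs1 was higher in Model (1.86 ± 0.25, adjusted P = 5.44e-05; median 0.19) and none passed in YHY with edgeR (median -0.24; 3 at an unadjusted P under 0.05 and 1 with DESeq2). Their part in the cytokine results was not tested. Aqp1 was not called from Ctrl to Model without Ctrl 4 (-0.78), at an adjusted P of 0.0527. Aqp2 was not called from Ctrl to Model without Ctrl 1 (-1.19), Ctrl 4 (-0.82), Model 2 (-1.08), Model 3 (-1.16) or Model 4 (-1.19), at an adjusted P of 0.0653 to 0.139.

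Within groups, the deviations of log2 CPM from the group means were compared over the 12 mice among 11929 genes, as a description. Those of Tnf were most like Zfp711, the chemokine Ccl4 and the granulocyte growth factor Csf3 (Pearson r = 0.953, 0.952 and 0.948). Pycard was most like Atg101, Rb1 and Car5b (0.936, 0.922 and 0.915), and Gsdmd like Sfxn4, Col16a1 and Pdgfrb (0.935, 0.925 and 0.921). Tlr4 was most like Zfp526, Shisa5 and Hs2st1 (0.932, 0.930 and 0.918), and Nfkbia like Copg2, Acap2 and Anapc7 (0.939, 0.912 and 0.883). For each gene the 3 highest values of 11929 were picked. The highest of so many values over 12 mice can be large for unrelated genes, and none was tested. Among the 9 genes themselves, the highest values were those of Nlrp3 with Il1b (0.776) and with Tnf (0.774).

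**Figure D5:**
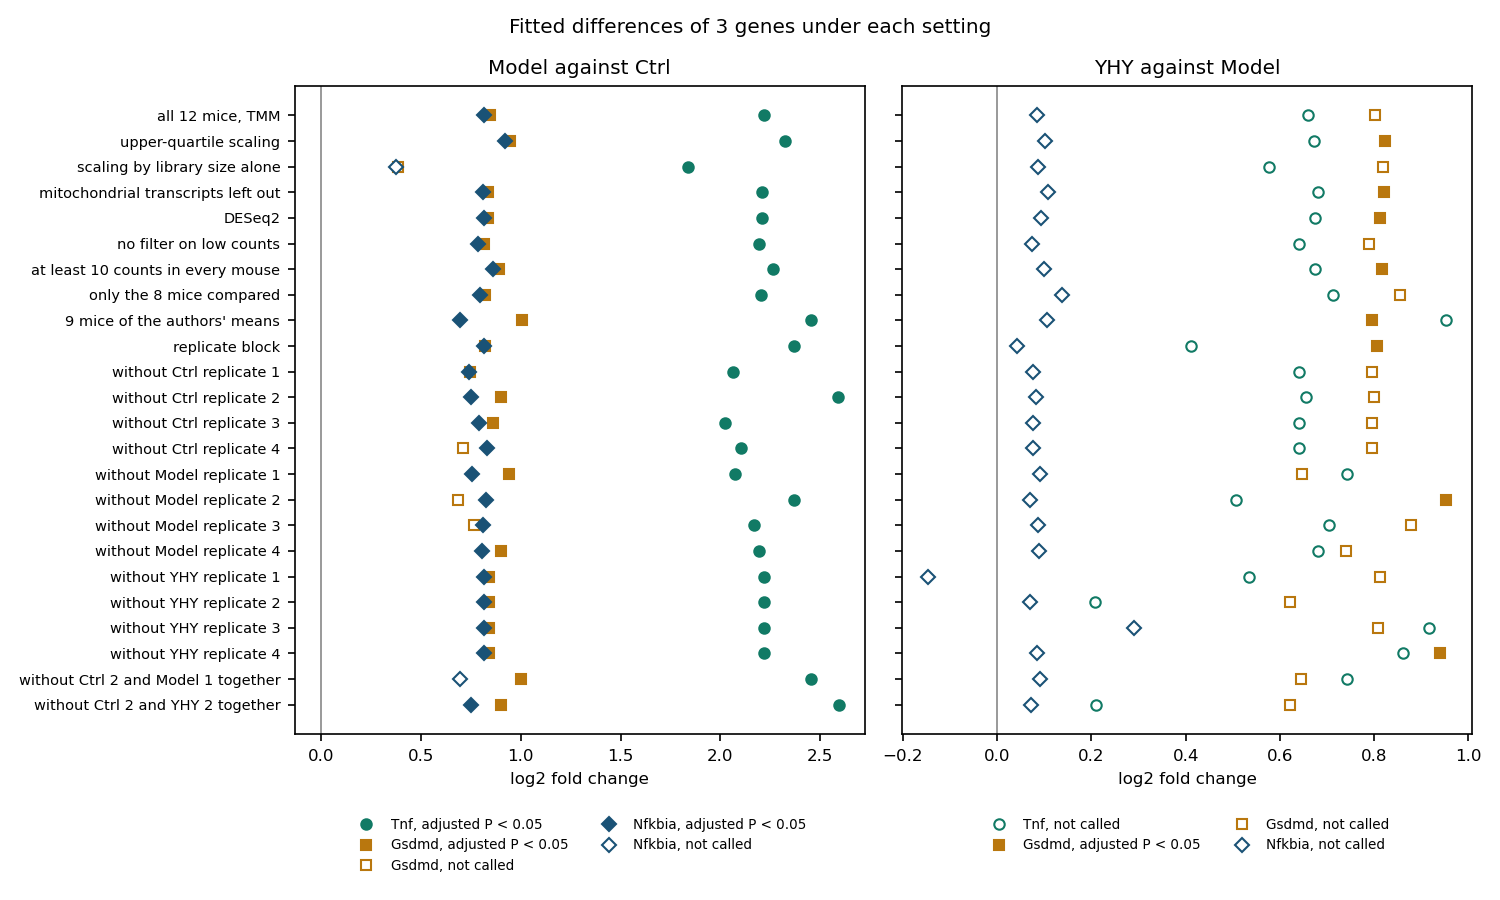
Log2 fold change of Tnf, Gsdmd and Nfkbia under each way of processing the counts, for Model against Ctrl and YHY against Model; filled points have an adjusted P under 0.05. Tnf stays between 1.84 and 2.59 and filled throughout Model against Ctrl, whereas Gsdmd and Nfkbia fall to 0.39 and 0.38 with library sizes alone.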

How the data were processed

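Gene counts of 12 mice were deposited by the authors as raw whole numbers per gene. The submitters' processing notes name FastQC 0.11.9, Trimmomatic 0.39, HISAT2 2.2.1, SAMtools 1.12, featureCounts 2.0.1 and GRCm39; annotation release and strand setting are not given in the sources used here. The authors' comparison tables hold group means as a normalised signal, which rest on 9 mice (Ctrl 1, 3 and 4, Model 2, 3 and 4, YHY 1, 2 and 3); their fold changes and p-values, the pathway tables and 12 per-mouse columns were not used.

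Counts were analysed with edgeR 4.0.16 in R 4.3.3 (filterByExpr, TMM, quasi-likelihood test, all 12 mice in 1 fit of 3 groups, Benjamini-Hochberg adjustment over 17431 genes) and DESeq2 1.42.0 as an alternative. The code was tested on simulated data. No shift in mitochondrial share was built into them, so that test does not cover the scaling under such a shift. Single genes were compared by two-sided exact permutation of CPM, 4 mice against 4. Named list genes are at most the 3 with the largest log2 fold change per list, comparison and direction, with an adjusted P under 0.05 and a mean of at least 50 counts; other genes named were chosen after their values were seen. Likeness used log2(CPM + 0.5). The names of some marker genes are not reported here. Replicate libraries differed by more than sampling noise. The members and lists were chosen with earlier results of these data known. Alternatives covered scaling, filter, test, samples, replicate block and threshold.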

Additional observations from a re-analysis of the deposited data

Results flagged for a closer look

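Of 81 groups of 4 mice looked at, 6 held a mouse whose gap to the others exceeded Dixon's 95% limit; chance gives about 1 in 20 groups. Il6 stood at 0.305 CPM in YHY 1 and at 0 in the other YHY mice. Casp1 stood at 1.49 CPM in Ctrl 1, against 0.661 to 0.748 in the other Ctrl mice. The mitochondrial share was 22.7% in Ctrl 2, against 18.4% to 18.6%, and 64.6% in YHY 2, against 53.8% to 54.6%. Ctrl 2 also had the fewest counts of its group, 29632718, and B cell markers summed to 3.14 CPM in Ctrl 4, against 9.10 to 10.2.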

How the results depend on the processing

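The number of the 10 genes past an adjusted P of 0.05 was 3 in Model against Ctrl and ran from 1 to 5 over 24 alternatives; in YHY against Model it was 0 and ran from 0 to 1. In Model against Ctrl it was 5 with upper-quartile scaling, with at least 10 counts in every mouse and with the study's limits (fold change over 1.2, unadjusted P under 0.05), and 1 with library sizes alone, which moved the median log2 fold change of all genes from 0.04 to -0.39 (0.14 with upper-quartile scaling) and the share of higher calls from 51.5% to 21.4%. In YHY against Model it was 1, Gsdmd, with upper-quartile scaling, without mitochondrial transcripts, with DESeq2, with at least 10 counts in every mouse, with the 9 mice of the authors' means and with the study's limits, and also without Model 2 and without YHY 4. Leaving out each mouse gave 2 to 4 genes and 0 to 1 gene. With the replicate block the counts were 3 and 1 (Gsdmd, adjusted P = 0.0369); the numbers name different animals, 3 of 12 mice correlated best with their own number, and same-numbered mice had r from -0.208 to 0.170, so the block is no pairing.

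Without Ctrl 2 and Model 1 together the counts were 2 and 0, and without Ctrl 2 and YHY 2 together 3 and 0; both were chosen after seeing the data. In the mitochondrial share Ctrl 2 and YHY 2 lay past the limit for a value apart from its group, and Model 1 did not.

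With library sizes alone Il18 gave -0.10 and Tlr4 -0.41 in Model against Ctrl, and Osmr, which was called, gave -0.0042. Tlr4 gave -0.02 without Ctrl 2, -0.09 without Ctrl 3, -0.10 without Model 3 (range without each mouse -0.10 to 0.12) and -0.0174 without Ctrl 2 and YHY 2, and Il18 gave -0.13 without Model 1 (range -0.13 to 0.54). In YHY against Model, Nfkbia gave -0.15 without YHY 1 (range -0.15 to 0.29), and Il1b -0.46 without YHY 2 (range -0.46 to 0.58) and -0.46 without Ctrl 2 and YHY 2. The cause was not tested. Of the list genes given with a call in the text, 28 of 46 in Model against Ctrl and 5 of 16 in YHY against Model were called in the same direction under every setting (in the latter Nfkbiz, Ikbkb, Rnf31, Ninj1 and Atp6v1g3). Il6, with at most 12 counts, fell below the filter, and whether depth limits the other genes was not tested.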
